A study of Homo sapiens with 18 samples.

Results

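Kinesins are the motor proteins that the KIF genes encode, and their transcripts were followed in SKOV-3 ovarian carcinoma cells before and after the cells were given a luteinizing hormone receptor (LHR) and its hormone (LH). The genes were taken from the array by symbol, as those with a probe set annotated to a single symbol that begins with KIF and a number or with KIFC, and each gene was represented by its probe set with the highest mean log2 intensity over the 6 groups. By this rule 45 of 19775 genes were found, of which 41 encode kinesins and 4 are antisense RNA genes named after a kinesin neighbour. The kinesins were sorted by their known role into 13 mitotic, 17 transport and 11 other kinesins. KIF2A, which acts at spindle poles and in neurons, was placed with the other kinesins, so that counts of mitotic kinesins leave it out. KIF4B was not analysed here, since no probe set lists its symbol alone.

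A kinesin turns ATP into steps along a microtubule, and the family divides between motors that carry vesicles, organelles and RNA through the cell and motors that build the mitotic spindle, move chromosomes and cut the cell apart at division. The mitotic members are made mainly late in the cell cycle, shortly before division, so that their transcripts are abundant in dividing cultures, and several of them are targets of experimental anti-mitotic drugs. Transport kinesins are needed in resting and dividing cells alike and often work with adaptor proteins that bind the cargo.

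The 18 arrays (Affymetrix Human Genome U133 Plus 2.0) form 6 groups of 3 independent replicates. SKOV-3 is an established line of epithelial ovarian carcinoma cells. The study describes the control cells it used as without LHR, and it cites reports both for and against LHR in this line. LHR- cells are the control, called the parent line in some of the study's text and mock-transfected in other places, LHR+ cells are SKOV-3 cells stably transfected with LHR and given no hormone, and LH1, LH4, LH8 and LH20 are LHR+ cells kept with LH at 50 ng/ml for 1, 4, 8 and 20 h. Whether the LHR+ cells are a clone or a pool is not given in the sources used here, and transfection and selection cannot be told apart from the receptor itself. The design has a single untreated LHR+ group and no untreated cells for each LH time, so that time in culture and LH cannot be told apart either. All 4 LH comparisons share the same LHR+ arrays, which LHR+ against LHR- also uses.

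The arrays were on a similar scale, with medians of 46.9 to 57.9 intensity units, and the median log2 difference over all genes lay between -0.0112 and 0.00467 in the 8 comparisons. The label of the cells was checked against marker genes of the cell line and of other cell types. Of 9 epithelial and SKOV-3 markers, KRT7, KRT8, KRT18, MUC1, ERBB2 and PAX8 were above the median gene, whereas EPCAM, CDH1 and WT1 were below it, and the 4 leukocyte and 4 endothelial markers measured never exceeded 28.9 units on any array. The probe set for LHCGR, the gene of LHR, read 0.196 to 4.11 units on all arrays and was not called in LHR+ against LHR- cells, so that it does not check the labels. Whether the transfected construct contains the sequence of this probe set is not given in the sources used here.

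A gene was called in a comparison when it differed at least 2-fold with p under 0.05 and a Benjamini-Hochberg adjusted p under 0.1 in limma over all 19775 genes, and when all 3 arrays of one group lay above all 3 of the other. Fold changes are differences of mean log2(intensity + 1), which understate the change of dim genes. Of the 41 kinesins, 15 were called in at least 1 of the 8 comparisons, namely 8 mitotic, 3 transport and 4 other kinesins, where 14.5% of all genes were called in at least 1. In LHR+ against LHR- cells 4 kinesins were higher and 1 was lower, where 4.63% of all genes were called (2.57% up and 2.06% down). After 1 h of LH no kinesin was called, against 0.324% of all genes, and 1 of 41 had an unadjusted p under 0.05. The model without variance moderation also called none of the 41. Against LHR+ cells 7 kinesins were lower and none was higher after 4 h of LH (2.23% of all genes called, 0.925% down). After 8 h 1 was higher (1.73% of all genes called, 1% up), and after 20 h 1 was higher and 6 were lower (7.72% of all genes called, 3.83% up and 3.88% down). By the adjusted p alone, 5 kinesins were higher and 12 lower in LHR+ than in LHR- cells (10.4% and 8.22% of all genes). By the same rule 2 were higher and 12 lower at 4 h (4.9% and 5.97%), 3 and 11 at 8 h (5.19% and 5.73%) and 5 and 17 at 20 h (16% and 18%), all against LHR+ cells.

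**Figure D1:**
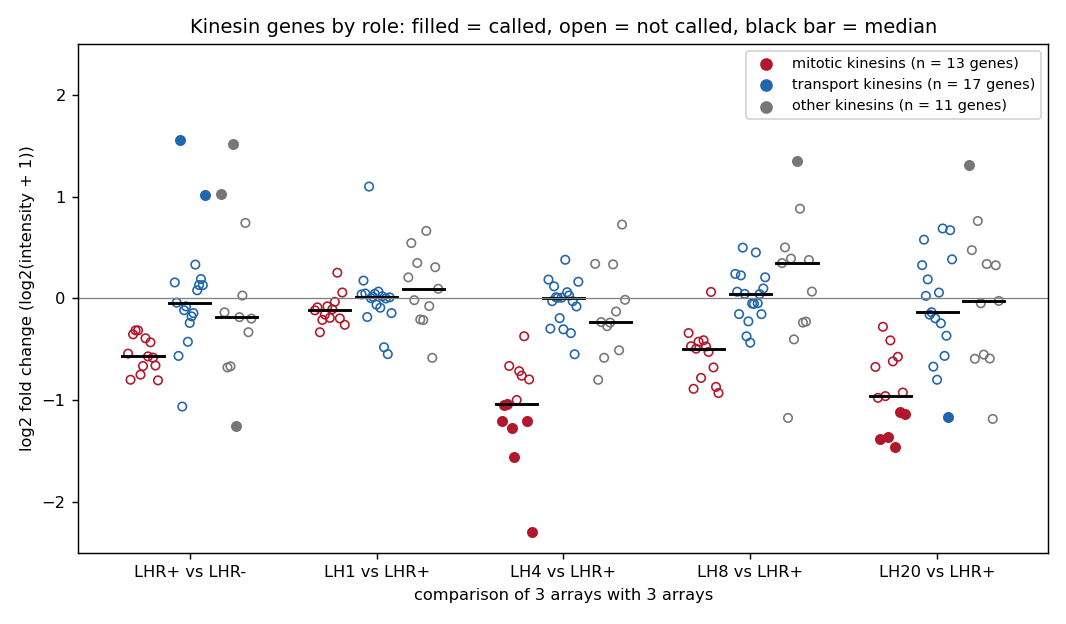
The vertical axis gives the log2 fold change of each kinesin gene on the log2(intensity + 1) scale and the horizontal axis the comparison of 3 arrays with 3 arrays, with mitotic kinesins in red, transport kinesins in blue, other kinesins in grey, filled points for called genes and black bars for the median of each role. The median of the mitotic kinesins was -0.57 in LHR+ against LHR- cells, and against LHR+ cells it was -0.118 in LH1, -1.04 in LH4, -0.494 in LH8 and -0.96 in LH20 cells, while the transport median lay between -0.136 and 0.0421 in these comparisons.

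The mitotic kinesins were the group with the most calls after LH. At 4 h all 13 had a lower mean than in LHR+ cells, 12 passed the adjusted p threshold (5.97% of all genes did so downwards), and 7 were called down (0.925% of all genes). These 7 were KIFC1, KIF20A, KIF18B, KIF11, KIF2C, KIF14 and KIF15. The intensities of the 13 probe sets, added up per array, were 18165 to 19191 units in LHR+ cells and 8542 to 8851 units at 4 h.

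KIFC1, a motor that walks towards microtubule minus ends and gathers them into spindle poles, fell the furthest of the kinesins called at 4 h. Its probe set read 847, 722 and 725 units in LHR+ cells, 602, 703 and 610 after 1 h, 173, 146 and 146 after 4 h, 433, 382 and 386 after 8 h and 351, 353 and 333 after 20 h of LH. No array of the 4 LH groups reached the lowest LHR+ array, and the 4 h arrays lay below every other array. The fall from LHR+ to LH4 was 4.90-fold (log2 change -2.29, SE 0.19, adjusted p 3.57e-06 by limma), and from LH1 to LH4 it was 4.09-fold (adjusted p 1.90e-05). In LHR- cells the same probe set read 991, 2003 and 1194 units, the widest spread of any group for this gene.

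KIF20A, a motor of the central spindle that is needed for the final cut between daughter cells, read 1460, 1444 and 1388 units in LHR+ cells, 1286, 1500 and 1288 after 1 h, 524, 411 and 527 after 4 h, 807, 777 and 917 after 8 h and 598, 542 and 534 after 20 h. The 1 h arrays overlapped the LHR+ arrays and the later ones did not. Its fall at 4 h was 2.95-fold (SE 0.11 on the log2 scale, adjusted p 7.03e-07). KIF18B, which shortens microtubules that reach from the spindle to the cell cortex, read 4333, 4148 and 3801 units in LHR+ cells and 1608, 1741 and 1719 after 4 h, a 2.42-fold fall (adjusted p 4.12e-07). It then read 3343, 3146 and 2682 units after 8 h, closer to the LHR+ arrays but below all of them.

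KIF11, the motor that pushes the spindle poles apart and the target of the best known anti-mitotic kinesin inhibitors, read 2398, 2390 and 2367 units in LHR+ cells and 2281, 2298 and 2026 after 1 h. It read 991, 981 and 1138 units after 4 h, 1831, 1879 and 1941 after 8 h and 1459, 1449 and 1580 after 20 h. The 4 h arrays lay below all others, and the 8 h arrays lay between those of 20 h and those of LHR+ cells. The fall at 4 h was 2.30-fold (SE 0.08 on the log2 scale, adjusted p 2.73e-07).

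KIF2C, which removes tubulin from microtubule ends to correct faulty chromosome attachments, read 1300, 1231 and 1401 units in LHR+ cells and 550, 628 and 530 after 4 h, and fell by 1.20 on the log2 scale (SE 0.12, adjusted p 1.41e-05). KIF14, a motor of late cytokinesis, read 2213, 2193 and 1814 units in LHR+ cells and 1004, 948 and 1038 after 4 h, and fell by 1.05 (SE 0.10, adjusted p 1.93e-05). For both genes the arrays of the groups were far apart. KIF15, which can stand in for KIF11 in keeping the spindle bipolar, read 161, 238 and 219 units in LHR+ cells and 81.1, 113 and 104 after 4 h, and fell by 1.04 (SE 0.15, adjusted p 0.000505). Its groups did not overlap, but the fold lies so near 2 that the call was lost without LHR+ replicate 2 (log2 change -0.93), without LHR+ replicate 3 (-0.98) or without LH4 replicate 1 (-0.90), and with 16 added to each intensity (-0.94).

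**Figure D2:**
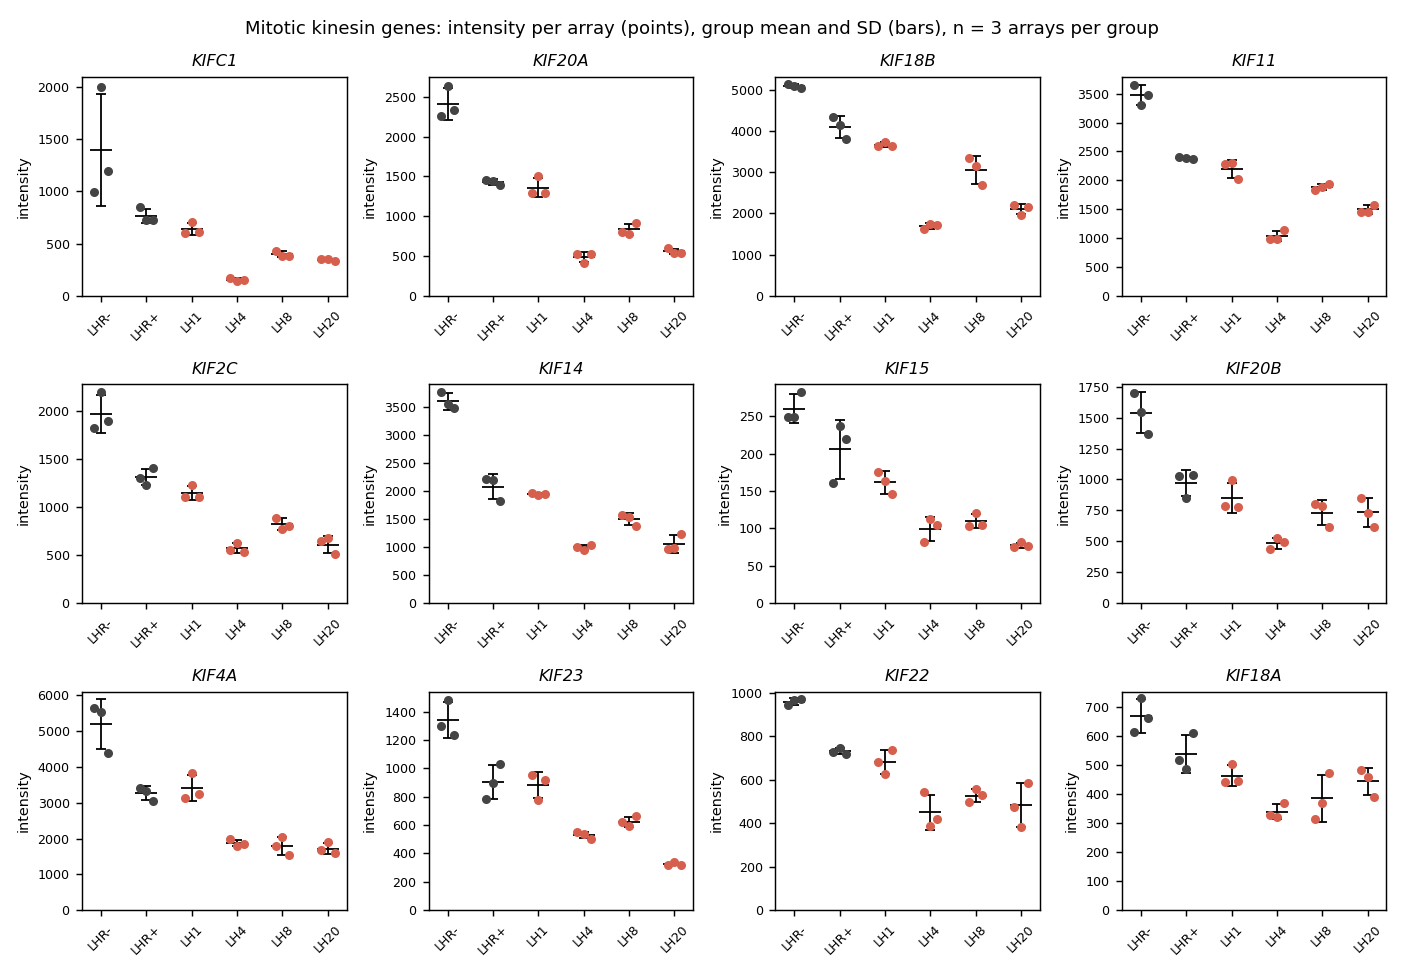
Each panel gives the intensity of 1 mitotic kinesin on its own linear axis from 0, with a point per array (3 arrays per group), the group mean and a bar of 1 SD, in LHR- and LHR+ cells (dark) and after 1, 4, 8 and 20 h of LH (red). KIFC1, KIF20A, KIF18B and KIF11 reached their lowest mean at 4 h (155, 487, 1689 and 1037 units) and stood higher at 8 h (400, 834, 3057 and 1884 units), and KIF2B, which read under 6 units on every array, is not drawn.

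Because these genes moved together at 4 h, the promoters of the kinesins were searched for letters known from cell cycle genes and from cAMP signalling. The RefSeq promoter table (GRCh38.p14, 250 bases before to 50 after a transcript start) held 33 of the 41 kinesins, and the promoter listed first was used where a gene had several. The cell cycle homology region (CHR, TTTGAA or its reverse complement TTCAAA) was present in 9 of 13 mitotic kinesins (69.2%), 1 of 12 transport kinesins and 0 of 8 other kinesins, and in 15.4% of all 27305 promoters. The CCAAT box (CCAAT or ATTGG) was present in 10 of 13 mitotic kinesins (76.9%) and in 35.7% of all promoters, and both motifs stood in 8 of 13 (61.5%) and in 6.08% of all promoters. The cAMP response element (CRE, TGACGTCA, its own reverse complement) was found in 1 mitotic kinesin, KIF15, and in 1.98% of all promoters. A match of letters is a description of the window and shows neither binding nor its effect.

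Upstream windows of 130 bases that end just before the transcript start are shown for 6 mitotic kinesins, in GRCh38.p14 and 5′ to 3′ along the gene, with the letters of the motifs in capitals. KIF11, KIF4A and KIF18A hold a CCAAT box followed by a CHR at 25, 24 and 35 bases, counted between first bases. KIF15 holds a CRE and a CHR, KIF20A holds 2 CCAAT boxes and no CHR, and KIF2C, called at 4 and 20 h, holds none of the 3 motifs. None of these windows lies within another gene of the RefSeq table.
KIF11 (chr10:92593000-92593129, plus strand): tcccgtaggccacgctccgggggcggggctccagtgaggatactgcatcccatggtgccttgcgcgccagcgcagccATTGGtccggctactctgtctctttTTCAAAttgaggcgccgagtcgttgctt
KIF4A (chrX:70289974-70290103, plus strand): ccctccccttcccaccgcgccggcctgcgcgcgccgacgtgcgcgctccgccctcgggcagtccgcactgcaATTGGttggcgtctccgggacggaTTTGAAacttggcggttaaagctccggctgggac
KIF18A (chr11:28108157-28108286, minus strand): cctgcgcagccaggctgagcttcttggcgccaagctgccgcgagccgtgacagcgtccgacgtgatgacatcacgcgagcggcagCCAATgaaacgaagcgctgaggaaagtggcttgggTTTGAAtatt
KIF15 (chr3:44761664-44761793, plus strand): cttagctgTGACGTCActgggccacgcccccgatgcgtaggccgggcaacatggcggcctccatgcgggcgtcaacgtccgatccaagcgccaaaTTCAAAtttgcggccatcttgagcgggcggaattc
KIF20A (chr5:138178982-138179111, plus strand): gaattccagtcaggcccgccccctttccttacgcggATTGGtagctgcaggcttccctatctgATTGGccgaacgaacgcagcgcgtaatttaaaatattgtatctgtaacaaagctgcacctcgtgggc
KIF2C (chr1:44739707-44739836, plus strand): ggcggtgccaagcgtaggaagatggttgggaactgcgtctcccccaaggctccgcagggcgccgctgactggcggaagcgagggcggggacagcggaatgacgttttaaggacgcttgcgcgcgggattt

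**Figure D3:**
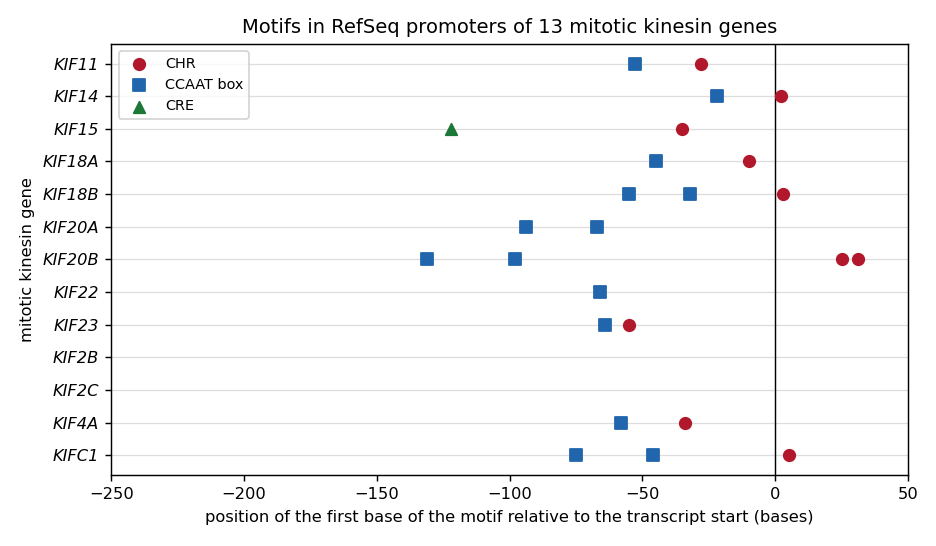
The horizontal axis gives the position of the first base of each motif relative to the transcript start, in bases, for the 13 mitotic kinesins, with circles for the CHR, squares for the CCAAT box and a triangle for the CRE. In KIF11 the CCAAT box begins 53 and the CHR 28 bases before the start, in KIF14, KIF18B, KIF20B and KIFC1 the CHR lies after the start, and KIF2B and KIF2C have no mark.

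The other mitotic kinesins were lower at 4 h without reaching a 2-fold change. KIF20B, a motor of late cytokinesis, fell by 1.00 on the log2 scale, from 1030, 847 and 1037 units to 436, 523 and 495 (adjusted p 0.000934), and was called without LHR+ replicate 2, without LH4 replicate 2 or 3, and with equal array medians. KIF4A, a chromosome-bound motor that also sets the length of the midzone, fell by 0.80 (adjusted p 0.00108). KIF23, the motor subunit of centralspindlin, fell by 0.76 (adjusted p 0.000468). KIF22, which pushes chromosome arms away from the poles, and KIF18A, which dampens the swings of chromosomes at the metaphase plate, fell by 0.72 and 0.66. KIF2B, another tubulin-removing kinesin, read 0.624 to 2.80 units in the 6 group means and did not pass the test anywhere.

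Between 4 and 8 h the mitotic kinesins moved the other way. Of the 13, 12 had a higher mean at 8 h than at 4 h, 7 passed the adjusted p threshold upwards (3.97% of all genes did), and KIFC1 was called with a 2.57-fold rise (adjusted p 0.000973, 1.31% of all genes called in that step and 0.657% up). KIF11 rose by 0.86 and KIF18B by 0.85 on the log2 scale (adjusted p 3.34e-05 and 7.14e-05). They did not regain the level of LHR+ cells, since 12 of the 13 still had a lower mean at 8 h, 11 of them past the adjusted p threshold (5.73% of all genes downwards), and none reached a called fold. KIF4A, KIF15, KIF23, KIF22 and KIF18A did not pass the test for this step, with log2 differences of -0.07, 0.15, 0.23, 0.24 and 0.17. The very dim KIF2B did not pass it either.

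After 20 h all 13 mitotic kinesins again had lower means than in LHR+ cells, 11 past the adjusted p threshold (18% of all genes downwards) and 5 called (3.88% of all genes). With the mean of all probe sets of a gene, 12 of the 13 were below 0 and 1 above. KIF23, which fell by 0.76 at 4 h, read 788, 898 and 1028 units in LHR+ cells, 550, 538 and 506 after 4 h, 623, 591 and 661 after 8 h and 318, 337 and 322 after 20 h. Its lowest arrays were those of 20 h, with a 2.75-fold fall against LHR+ cells (adjusted p 4.28e-07) and a further fall by 0.94 on the log2 scale from 8 to 20 h (adjusted p 4.92e-05). KIF15 was also lowest at 20 h, at 75.3, 81.55 and 75.8 units, a 2.60-fold fall (adjusted p 1.13e-05).

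KIF20A, KIFC1 and KIF2C were called at 20 h as well, with falls of 2.56-fold, 2.20-fold and 2.17-fold. Their adjusted p values were 9.13e-07, 0.000462 and 8.64e-06. The call of KIF2C rested on LH20 replicate 3, which read 505 units where the others read 643 and 671.5, and without it the log2 change was -0.99. KIF11, KIF14 and KIF18B fell by 0.67, 0.98 and 0.96 and stayed under a 2-fold change, but KIF14 was called without LHR+ replicate 3 (log2 change -1.07) or LH20 replicate 3 (-1.10), and KIF18B without LHR+ replicate 3 (-1.01). Of the 8 mitotic kinesins called at 4 or 20 h, 4 were called at both times, which is 4 of 7 at 4 h and 4 of 5 at 20 h.

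The step tests compare an LH time with the one before, so that their fold changes do not use the LHR+ arrays. Their SEs and p-values come from the single model of all arrays, which includes the LHR+ arrays. From 1 to 4 h 6 kinesins were called down and none up (1.79% of all genes called, 0.951% down), namely KIFC1, KIF20A, KIF18B, KIF11, KIF2C and the dim KIF19. All 13 mitotic kinesins had lower means at 4 h than at 1 h, 12 of them past the adjusted p threshold (4.21% of all genes downwards). KIF2C fell by 1.01 and lost its call without LH1 replicate 2, LH4 replicate 1 or LH4 replicate 3 (log2 change -0.96 to -0.98), with 16 added to each intensity (-0.99) and with equal array medians (-0.98). From 8 to 20 h the mitotic median was -0.441, 7 of 13 passed the adjusted p threshold downwards (13.5% of all genes), and none was called.

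In cells without hormone, the mitotic kinesins were lower with the receptor than without it. All 13 had a lower mean in LHR+ than in LHR- cells, 10 passed the adjusted p threshold (8.22% of all genes downwards), and none reached 2-fold in the fit of all arrays. KIF14 read 3758, 3546 and 3483 units in LHR- cells and 2213, 2193 and 1814 in LHR+ cells, a 1.74-fold fall (adjusted p 0.000161). KIF20A read 2255, 2636 and 2340 units in LHR- cells against 1460, 1444 and 1388, a 1.68-fold fall (adjusted p 0.000385). In neither gene did the groups overlap. KIFC1 fell 1.75-fold (adjusted p 0.0115), and without LHR- replicate 1 its log2 change was -1.02 and it was called. All 13 mitotic kinesins had their highest mean in LHR- cells, and 9 had their lowest at 4 h and 4 at 20 h.

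RNA was taken from whole cultures, so that fewer cells in division and less of a transcript in each dividing cell cannot be told apart in these values. Transcripts were also counted for 19 spindle partners, taken as proteins that work beside the mitotic kinesins. Their list includes CENPE, which is itself a mitotic kinesin whose symbol lies outside the rule used here. Of the 19 partners, 8 were called down at 4 h (0.925% of all genes), 1 at 8 h (1.73% called either way) and 6 at 20 h (3.88% down). Past the adjusted p threshold downwards were 16, 11 and 12 of them (5.97%, 5.73% and 18% of all genes), and at 20 h NUMA1, a spindle pole protein, passed it upwards and rose by 0.91 on the log2 scale, from a mean of 1063 to 1985 units. CDCA8, a subunit of the chromosomal passenger complex, had means of 2231 units in LHR+ cells and 599.5 at 4 h and fell by 1.90 on the log2 scale (adjusted p 5.60e-08). BUB1, a checkpoint kinase of the kinetochore, and PLK1, a kinase of mitotic entry and spindle assembly, fell by 1.67 and 1.57. BUB1 was the partner called in LHR+ against LHR- cells (2.06% of all genes called down), where it fell by 1.27. In that comparison 11 of the 19 partners passed the adjusted p threshold downwards (8.22% of all genes). HMMR, a spindle pole protein, was the partner called upwards from 4 to 8 h (0.657% of all genes called up), by 1.03. In that step 8 of the 19 passed the adjusted p threshold upwards (3.97% of all genes).

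**Figure D4:**
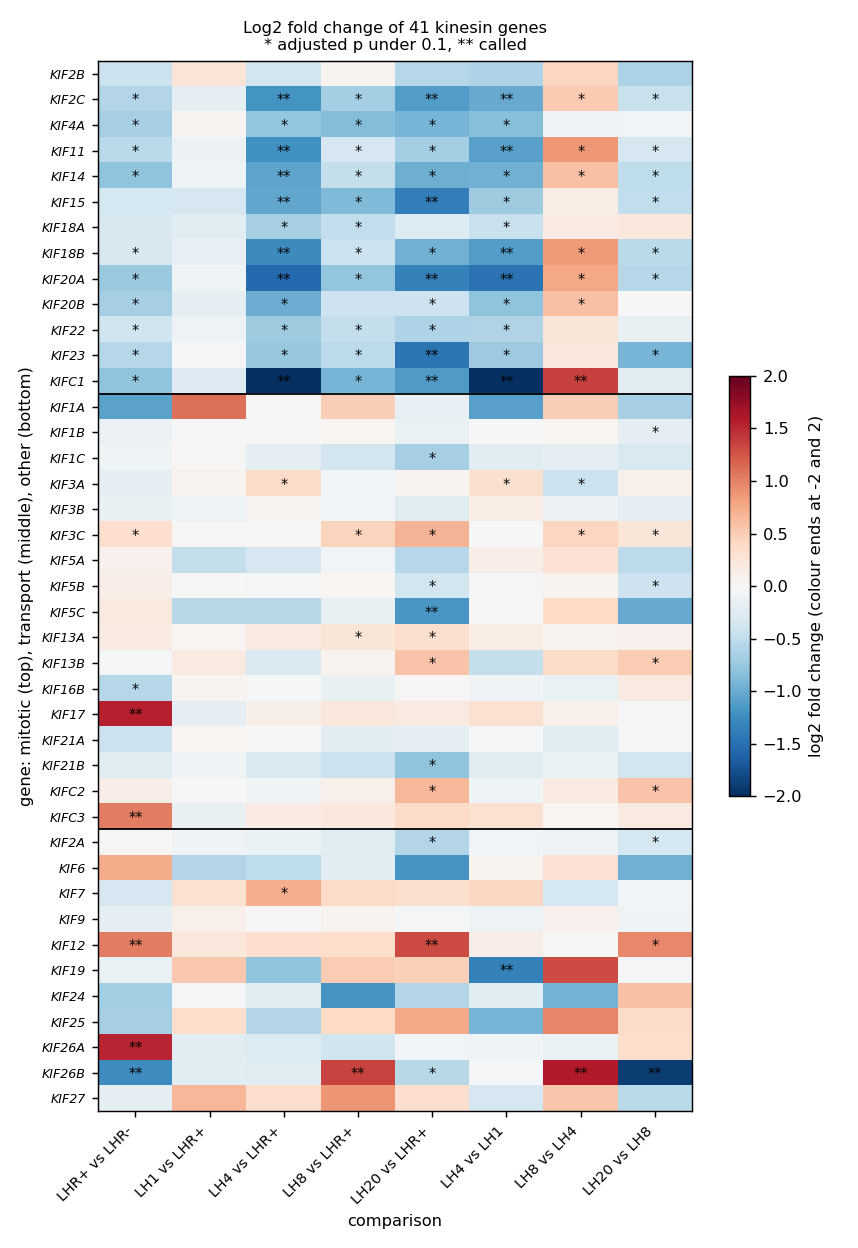
Rows are the 41 kinesin genes, ordered as mitotic, transport and other, columns are the 8 comparisons, and colour gives the log2 fold change from -2 (blue) to 2 (red), with 1 star for an adjusted p under 0.1 and 2 stars for a call. The mitotic block is blue at 4 h, with 12 of 13 genes starred, and reddish from 4 to 8 h, with 7 of 13 starred, whereas in the transport block 1 of 17 genes is starred at 4 h and 8 of 17 at 20 h against LHR+ cells.

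The transport kinesins did not share a direction. At 4 h 9 of 17 had a higher and 8 a lower mean than LHR+ cells, and none was called. KIF5B, the heavy chain of conventional kinesin that most cells use, had means between 4871 and 6467 units in the 6 groups, and KIF13A, which carries vesicles from endosomes and the Golgi to the cell surface, between 4896 and 6841 units. The summed intensity of the 17 transport kinesins was 27224 to 28546 units on average, with SDs of 349 to 1078.

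KIF17, a motor of dendrites and cilia, was called in LHR+ against LHR- cells, where it read 5.78, 15.0 and 18.4 units in LHR- and 53.8, 33.6 and 27.2 in LHR+ cells. The groups did not overlap, but both are dim, and with 16 added to each intensity its log2 change of 1.55 (SE 0.39, adjusted p 0.0161) became 0.89. KIFC3, a minus-end-directed motor that binds cell junctions, read 84.2, 53.8 and 76.9 units in LHR- and 143, 117 and 178 in LHR+ cells, 2.03-fold higher (adjusted p 0.0101). The call was lost under 6 of 25 alternatives. Among them were the fits without LHR- replicate 2 (log2 change 0.83) or LHR+ replicate 3 (0.87), and with equal array medians (0.98) or quantile normalization (0.96).

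At 20 h 4 of 17 transport kinesins passed the adjusted p threshold upwards and 4 downwards (16% and 18% of all genes), and KIF5C was called (7.72% of all genes), so that these shares are near those of all genes. KIF3C, a partner of KIF3A in a motor of vesicles, read 1553, 1640 and 1451 units in LHR+ cells, 2132, 2191 and 2025 after 8 h and 2303, 2600 and 2577 after 20 h, with no overlap, and rose by 0.69 on the log2 scale at 20 h (SE 0.09, adjusted p 4.22e-05). KIFC2, a neuronal motor, and the vesicle motors KIF13B and KIF13A rose by 0.67, 0.58 and 0.33. KIF5B, the vesicle motor KIF1C and the neuronal KIF21B fell by 0.37, 0.67 and 0.80. KIF5C, a heavy chain found mainly in neurons, read 38.6, 51.5 and 68.6 units in LHR+ cells and 32.9, 15.6 and 21.97 after 20 h. The groups were separate by a narrow gap, the adjusted p was 0.0566, and the call was lost under 6 of 25 alternatives. Among them were the fits without LHR+ replicate 2 or 3 or LH20 replicate 2 or 3 (adjusted p 0.114 to 0.197). With the mean of all its probe sets the log2 change was -0.0685.

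KIF3A, which drives transport within cilia, was the transport kinesin past the adjusted p threshold at 4 h, where it rose by 0.38 on the log2 scale (adjusted p 0.0116), and it fell again by 0.43 from 4 to 8 h (adjusted p 0.00788). KIF16B, a motor of early endosomes, fell by 0.57 in LHR+ against LHR- cells (adjusted p 0.00322). The transport kinesins not named here did not pass the adjusted p threshold against LHR+ cells at any LH time, nor in LHR+ against LHR- cells. From 8 to 20 h 4 kinesins of any role passed it upwards and 11 downwards (12.1% and 13.5% of all genes), from 4 to 8 h 9 and 1 (3.97% and 4.08%) and from 1 to 4 h 1 and 13 (4.4% and 4.21%).

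Among the other kinesins, KIF26B was called in 4 of the 8 comparisons. KIF26B, an unconventional kinesin that is needed for kidney development, read 485, 626 and 460 units in LHR- cells and 220, 303 and 153 in LHR+ cells. It read 175, 187 and 199 after 1 h, 175, 218 and 162 after 4 h, 535, 511 and 623 after 8 h and 175, 150 and 122 after 20 h of LH. The LHR- and the 8 h arrays were high and all others low, with no overlap between these sets. It was 2.39-fold lower in LHR+ than in LHR- cells (adjusted p 0.00144). After 8 h it was 2.55-fold higher than in LHR+ cells (adjusted p 0.00166) and 3.01-fold higher than after 4 h, and from 8 to 20 h it fell 3.74-fold (adjusted p 4.82e-05), the sole kinesin called in that step (4.59% of all genes called, 2.23% down). With the mean of its 3 probe sets the change was -0.77 in LHR+ against LHR- cells and 0.61 from 4 to 8 h, and both calls were lost.

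KIF12, a kinesin of epithelial cells linked to cholestatic liver disease, went up at both ends of the design. It read 114, 128 and 131 units in LHR- cells, 286, 251 and 229 in LHR+ cells, 293, 307 and 281 after 1 h, 389, 360 and 238 after 4 h, 340, 335 and 298 after 8 h and 595, 674 and 625 after 20 h. The LHR- arrays lay below all others and the 20 h arrays above all others. It was 2.47-fold higher at 20 h than in LHR+ cells (adjusted p 2.15e-05) and 2.04-fold higher in LHR+ than in LHR- cells (adjusted p 0.000404). The call in LHR+ against LHR- cells was lost under 5 of 26 alternatives. Among them were the fits without LHR- replicate 1 (log2 change 0.97) or LHR+ replicate 1 (0.94), and with equal array medians (0.99) or quantile normalization (0.96).

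KIF26A, an unconventional kinesin related to KIF26B, read 47.1, 19.8 and 22.5 units in LHR- and 81.7, 67.3 and 97.5 in LHR+ cells, 2.87-fold higher without overlap (adjusted p 0.00253). KIF19, which trims microtubules at the tips of cilia, read 18.1, 13.9 and 11.4 units after 1 h and 9.06, 1.58 and 7.27 after 4 h. Its call had an adjusted p of 0.0908, all values are dim, and it was lost under 18 of 25 alternatives, such as leaving out LH4 replicate 2 (log2 change -0.74). KIF2A, a tubulin-removing kinesin of spindle poles and neurons, had means of 2273 units in LHR- cells, 2321 in LHR+ cells and 2119 at 4 h. At 20 h its mean was 1540 units, lower than in LHR+ cells by 0.59 on the log2 scale (adjusted p 0.000484). KIF7, which acts in Hedgehog signalling at the tip of cilia, rose by 0.73 at 4 h (adjusted p 0.0765).

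**Figure D5:**
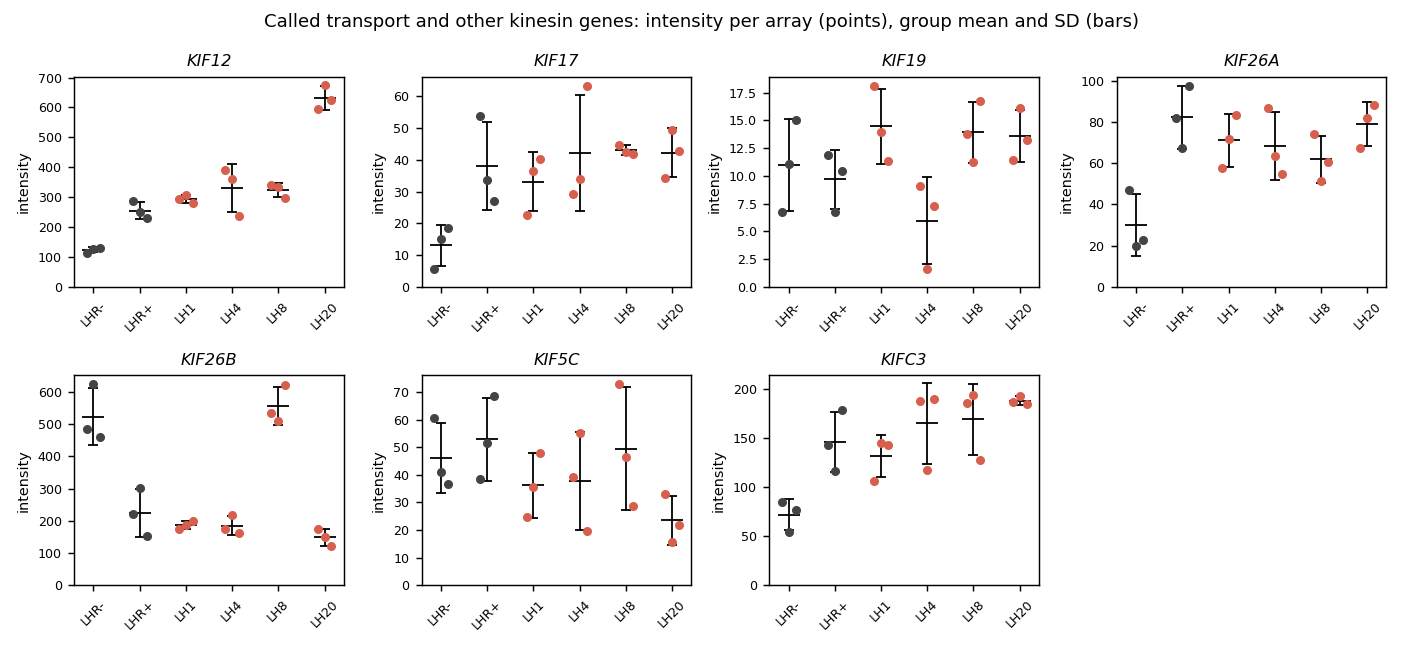
Each panel gives the intensity of 1 called transport or other kinesin on its own linear axis from 0, with a point per array (3 arrays per group), the group mean and a bar of 1 SD, in LHR- and LHR+ cells (dark) and after LH (red). KIF26B is high in LHR- cells and at 8 h (means of 524 and 557 units) and low elsewhere (149 to 225 units), and KIF12 is highest at 20 h (631 units), while KIF17, KIF19 and KIF5C stay under 75 units.

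The proteins that link kinesins to cargo and the opposite motor of microtubules were counted for comparison. Of 17 cargo adaptors measured, 6 passed the adjusted p threshold upwards and 1 downwards at 20 h (16% and 18% of all genes). The adaptor called against LHR+ cells (7.72% of all genes at 20 h) was MAPK8IP3, a scaffold on vesicles, which rose by 1.09 on the log2 scale at 20 h (adjusted p 0.000955). Of 21 dynein and dynactin genes, 1 was called in LHR+ against LHR- cells (4.63% of all genes called, 2.06% down). It was NDE1, a dynein regulator of spindle and centrosome, which fell by 1.10 (adjusted p 5.29e-06). DYNC1I1, a dynein intermediate chain, was dim, with means of 21.2 units at 8 h and 7.37 at 20 h. It was called down in that step (adjusted p 0.0505), where 2.23% of all genes were called down. No dynein or dynactin gene was called in the LH comparisons with LHR+ cells. Of all genes, 0.324%, 2.23%, 1.73% and 7.72% were called at 1, 4, 8 and 20 h. By the adjusted p threshold alone, 3, 1 and 4 of the 21 passed upwards and 1, 1 and 6 downwards at 4, 8 and 20 h. The shares of all genes past this threshold were 4.9%, 5.19% and 16% upwards and 5.97%, 5.73% and 18% downwards.

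Of the 41 kinesins, 26 had more than 1 probe set on the array with a single symbol, and 3 of 44 dimmer kinesin probe sets were called in at least 1 comparison in a fit over all 54675 probe sets, of which 12.9% were so called. The dimmer probe set of KIF14 had means of 254 units in LHR+ cells and 87.1, 105 and 95.5 after 4, 8 and 20 h, and was called at all 3 times, whereas the brighter one was called at 4 h alone. The dimmer probe set of KIF2C fell by 1.18 at 4 h and 1.11 at 20 h and was called at both, like the brighter one. The dimmer probe set of KIFC3 had means of 15.6 units in LHR+ cells and 62.1 at 20 h and was called there (log2 change 1.93), unlike the brighter one. KIF23 had a dimmer probe set that fell by 0.46 at 4 h and 0.59 at 20 h and was not called. The dimmer probe set of KIF22 had a log2 difference of 0.28 at 4 h (adjusted p 0.807), of the opposite sign to the brighter one. The 4 antisense RNA genes, KIF1C-AS1, KIF9-AS1, KIF23-AS1 and KIF25-AS1, were below the median gene, and none passed the adjusted p threshold in any comparison.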

How the data were processed

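Total RNA of 18 SKOV-3 samples was amplified as cDNA with the NuGEN Ovation system and hybridized to Affymetrix U133 Plus 2.0 arrays, and the array work was done by a service company. The deposited values are intensities per probe set and array on a linear scale, already summarized and scaled when the authors deposited them. The submitters' processing notes name PLIER and the paper names RMA, and the scaling method, version and background settings are not given in the sources used here. The precision is limited by 3 arrays per group.

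The deposited intensities were transformed as log2(intensity + 1) with no further normalization or filter. Of 54675 probe sets, 41097 list 1 symbol in the platform annotation, 1801 list several and 11777 none; symbols were brought up to date by gene ID with the RefSeq table of GRCh38.p14 (41043 matched). Each gene took its brightest probe set. The means of the 6 groups were estimated in a single model of all 18 arrays with limma 3.58.1 (lmFit and eBayes) in R 4.3.3, with two-sided p-values and Benjamini-Hochberg adjustment over 19775 genes. The thresholds are those of the study's methods. The study's tests were ANOVA and Mann-Whitney, and limma took their place. An exact Mann-Whitney test of 3 arrays against 3 cannot go below p = 0.1, a limit that ANOVA does not have. The series calls the replicates independent; p-values measure the spread between these arrays. The call procedure was tested on simulated data. Columns of samples outside the series numbered 0. Promoters were searched in Python 3.11.15, and matplotlib 3.10.9 was used for plots.

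Values per array were given for kinesins called in at least 1 of the 8 comparisons, group levels for those brightest in their role, and values of at most 3 called members of each other list with the largest change. The values per array of KIF20B and KIF3C, HMMR, NUMA1, the kinesins past the adjusted p threshold without a call and the dimmer probe sets were named after their values were seen. The members and lists were chosen with earlier results of these data known. Alternatives were another added constant, 2 other scalings, brighter genes alone, the mean of all probe sets, the compared groups alone, no variance moderation, a replicate block and leaving out each array. The counts of alternatives include fits without an array of a group outside the comparison. Such fits leave its fold change as it was and alter only its error and p-values.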

Additional observations from a re-analysis of the deposited data

Results flagged for a closer look

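The change against LHR+ cells differed between LH times in the steps below, by the test of the step itself in limma. The fold change compares 3 arrays with 3, and the error comes from the single model of all arrays. From 1 to 4 h the log2 change was -2.03 for KIFC1, -1.48 for KIF20A, -1.34 for KIF19, -1.12 for KIF18B, -1.09 for KIF11 and -1.01 for KIF2C. From 4 to 8 h it was 1.36 for KIFC1 and 1.59 for KIF26B, and from 8 to 20 h it was -1.90 for KIF26B. KIF19 is dim on all arrays, and its adjusted p was 0.0908. The cause of none of these was tested.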

How the results depend on the processing

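No named kinesin call changed sign under any alternative. In LHR+ against LHR- cells the count was 5 kinesins in the main fit. It was 2 with 16 added to each intensity and 3 with equal array medians, with quantile normalization and with the mean of all probe sets. The cause of these differences was not tested. With genes brighter than the median gene alone the count was 2, since KIF17, KIFC3 and KIF26A are below the median gene and were left out of that fit. KIF12 and KIF26B stayed in it and kept their calls. With the mean of all probe sets the count was 1 in place of 2 from 4 to 8 h and 2 in place of 1 from 8 to 20 h. Leaving out 1 array at a time gave 4 to 5 calls in LHR+ against LHR- cells, 0 to 0 at 1 h, 6 to 8 at 4 h, 1 to 2 at 8 h (KIF15 was called without LHR+ replicate 1), 6 to 8 at 20 h, 4 to 6 from 1 to 4 h, 2 to 3 from 4 to 8 h and 1 to 3 from 8 to 20 h (KIF5C was called without LH8 replicate 3, and KIF5C and KIF12 without LH20 replicate 1). The calls of KIFC1, KIF20A, KIF18B and KIF11 at 4 h and from 1 to 4 h were kept under all 26 alternatives, and the mitotic median at 4 h lay between -1.10 and -0.977 with another constant, scaling, probe set rule or model. Whether the replicate numbers pair the arrays is not settled by these values. Deviations from the group means correlated at -0.0218 to 0.0545 over 45 same-numbered pairs (mean 0.00634). Over 90 pairs with different numbers they correlated at -0.0604 to 0.0528 (mean -0.00317). Of 18 arrays, 9 correlated best with an array of their own number. With the replicate block the counts were 5, 0, 7, 1, 7, 6, 2 and 1 in the order above, and all 29 calls were kept. Dim genes such as KIF17, KIF19 and KIF5C have larger errors than bright ones such as KIF11, and 3 arrays per group limit all of the values.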
